A study of Hydra vulgaris with 2 samples.

Results

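Transcripts of the Wnt/β-catenin pathway were examined in RNA from the extracellular vesicles (EVs) of *Hydra vulgaris*, a freshwater polyp of the phylum Cnidaria. They are 5 targets of the transcript set, taken by their RefSeq identifiers from 25314 targets in all, of which 21982 are listed as mRNA. The ligand *Wnt3* (NM_001287363.1) and the intracellular effector *β-catenin* (NM_001280851.1) are positive regulators of the pathway. *Dickkopf 1/2/4-A* (NM_001280833.1, called *dkk1/2/4* here and Dkk1/2/4-A in the plots; the supplementary gene list describes it as Dickkopf-like protein Dlp-2), the related *Dlp-1* (NM_001280836.1, a dickkopf-like gene) and the astacin *HAS-7* (XM_012704632.1, described there as a zinc metalloproteinase nas-4-like) are listed by the paper as negative regulators. The RefSeq gene table for *Hydra* pairs the first 2 identifiers with a gene called *Wnt3a* as a synonym and with *ctnnb1*. The antagonists carry their names through the gene identifiers in the paper.

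In the canonical Wnt pathway a secreted Wnt ligand binds a Frizzled receptor and its LRP coreceptor, β-catenin is then spared from degradation, and with TCF it turns on target genes in the nucleus. In *Hydra* this pathway sets the oral-aboral axis, and *Wnt3* is expressed at the tip of the head, where the head organizer lies. Vertebrate Dickkopf proteins are secreted and block the LRP coreceptor. In *Hydra*, *dkk1/2/4* is expressed by gland cells of the body column, and HAS-7 is a secreted protease of the astacin family that acts on the Wnt3 protein.

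EV RNA of starved polyps of the strain Zurich was sequenced as the sole condition, in 2 libraries, here called library A (titled ExoRNA5000Hy) and library B (ExoRNA11250Hy). For each preparation dish, 250 polyps were kept in 10 mL of medium and starved for 4 days, and the vesicles were treated with 1 mg/mL proteinase K and 10 µg/mL RNase A before extraction. All polyps were unmanipulated animals of the 1 strain, vesicles of many animals were pooled in each library, and no whole-polyp or untreated RNA was analysed here, so the values describe the vesicle RNA and no enrichment over the animal. The paper describes the libraries as biological replicates, and no test between groups could be made.

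Libraries A and B held 5943550.5 and 3943873 estimated counts, of which mRNA targets held 365315 and 89191. Outside the 5 most abundant targets, of which 2 are listed as mRNA, mRNA had 142638 counts in library A against 34881 in library B. In library B 1 other mRNA target took 12586 of these, against 11819 in library A. A count above 0 was assigned to 54.1% (library A) or 14.7% (library B) of mRNA targets. The 5 most abundant targets made up 97.0% (library A) or 98.7% (library B) of everything counted. The share of all mRNA targets, with 2 of these 5 included, was 6.15% or 2.26%. Neither the number of vesicles nor the RNA per vesicle was analysed here, and the cause of the lower mRNA share of library B was not tested. The paper lists the tetraspanin CD151 as an exosome marker among the EV proteins. Its mRNA (LOC100205782) had 34 counts in library A against 4 in library B, which does not measure the amount of vesicles. Annexin B12 was not analysed here.

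The 5 Wnt transcripts together held 68 counts in library A against 11 in library B. Every one of these counts is a whole number, so no read was split between these and other targets, and none of the 5 identifiers is listed more than once. In library A all 5 genes had at least 3 counts, while in library B this held for *Dlp-1* alone and 4 genes had any count. Over all mRNA targets, a count of 3 or more was found for 29.1% (library A) or 3.35% (library B), and 3.13% reached this number in both. All intervals given here are for counting error alone and take reads as independent. PCR copies of a molecule are counted as separate reads, so the intervals can be too narrow even for counting error.

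**Figure D1:**
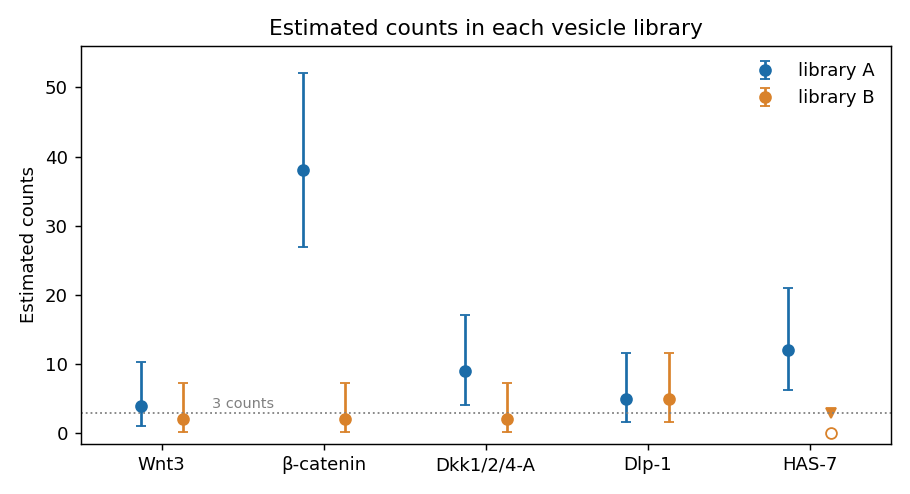
Estimated counts (vertical axis) of the 5 genes in library A (blue) and library B (orange), with 95% exact Poisson intervals as bars. The open circle is the 0 of *HAS-7* in library B, and the triangle above it marks a reference level of 3 counts. *β-catenin* had 38 and 2 counts and *HAS-7* 12 and 0 counts. All mRNA counts outside the 5 most abundant targets were 4.09-fold higher in library A. Of 137 other mRNA targets with 12 counts in library A, 77 also had 0 in library B. For 89 others with 35 to 41 counts in library A, the median in library B was 2.

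*Wnt3*, the ligand of the head organizer, was the least abundant of the 5 transcripts in library A. It had 4 estimated counts in library A (95% exact Poisson interval 1.09 to 10.2) and 2 in library B (0.242 to 7.22). On its 1360 bases these correspond to 0.452 TPM (counts per effective length, scaled to a fixed sum over all targets) and 0.359 TPM. On this scale the libraries were close to each other, with a mean of 0.405 ± 0.0656 TPM (SD, n = 2), whereas TPM rescaled over mRNA targets alone were 2.59 in library A and 5.36 in library B. At these counts the intervals of both deposited levels reach from 0.123 to 1.16 TPM and from 0.0435 to 1.30 TPM. Among 21982 mRNA targets *Wnt3* ranked 4853 in library A against 1122.5 in library B (tied ranks averaged), so that 22.1% and 5.10% of mRNA targets stood higher. Of 2566 mRNA targets within 10% of its length, 22.2% had at least 4 counts in library A, and 5.85% had at least 2 in library B.

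*β-catenin*, which carries the signal into the nucleus, had the most counts of the 5 genes in library A, 38 (26.9 to 52.2), and 2 (0.242 to 7.22) in library B. The 89 other mRNA targets with 35 to 41 counts in library A also had a median of 2 counts in library B. With 3054 bases *β-catenin* is also the longest of the 5 targets. Its levels were 1.84 TPM (1.30 to 2.52) in library A against 0.153 TPM (0.0186 to 0.554) in library B, a mean of 0.994 ± 1.19 TPM (SD, n = 2). It ranked 1062 among mRNA targets in library A against 2201.5 in library B. Of 840 mRNA targets within 10% of its length, 4.17% had as many counts in library A against 9.05% in library B.

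Of the antagonists, *dkk1/2/4* was the highest of all 5 genes by level in library A. It had 9 estimated counts (4.12 to 17.1) there and 2 (0.242 to 7.22) in library B. Because its target is 311 bases long, with an effective length of 217 bases in library A, these few counts stand for 5.92 TPM (2.71 to 11.2) and 2.12 TPM (0.257 to 7.65). The mean was 4.02 ± 2.69 TPM (SD, n = 2). It ranked 303 in library A against 195 in library B, above 98.6% and 99.1% of mRNA targets. Of the 254 mRNA targets within 10% of its length, 10 had at least 9 counts in library A, and 8 had at least 2 in library B.

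*Dlp-1*, the other dickkopf-type gene, was the only 1 of the 5 with no fewer counts in library B, with 5 counts (1.62 to 11.7) in each library. On 521 bases these are 1.68 TPM (0.545 to 3.91) in library A against 2.67 TPM (0.868 to 6.24) in library B, a mean of 2.18 ± 0.705 TPM (SD, n = 2). The level was thus higher in library B, by less than its counting error. Among the 4 genes with a count in both libraries it was the only 1 of which this held, and 16.1% of the 2833 mRNA targets with a count in both had a higher TPM in library B. *Dlp-1* ranked 1176 among mRNA targets in library A against 158 in library B, where it was the highest of the 5 genes. Of 1502 mRNA targets within 10% of its length, 7.59% had as many counts in library A against 1.86% in library B.

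*Dlp-1* and *dkk1/2/4* stand next to each other in the list of targets, and they are also direct neighbours on chromosome 1 of HydraT2T_AEP, an assembly that was not used to make the transcript set. Their counts were not shared in proportion between the libraries, 5 and 5 against 9 and 2, and the ratio of these ratios was 4.5. But its exact conditional estimate, 4.17, had a 95% interval of 0.464 to 59.6. Whether the dickkopf neighbours differ between the libraries was therefore not detectable at this depth.

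*HAS-7*, the protease, had 12 estimated counts (6.20 to 21.0) in library A against 0 (0 to 3.69) in library B. On its 506 bases the former are 4.17 TPM (2.16 to 7.29), rank 432 among mRNA targets, and 41 of 1439 mRNA targets within 10% of its length had as many counts. In library B the upper end of the same interval is 2.05 TPM. As a share of all counts, the exact 95% interval of the ratio of library A to library B began at 1.84 and had no upper end. As a share of the mRNA counts outside the 5 most abundant targets it began at 0.679, so on that scale no difference between the libraries was detectable.

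Expressed as TPM, the short antagonist targets thus stood above the longer *Wnt3* and *β-catenin* targets in most cases. The plot of levels against length shows how much of this is set by single reads. One count is worth 0.658 TPM on *dkk1/2/4* in library A against 1.06 TPM in library B, but 0.113 and 0.180 TPM on *Wnt3*, and 0.0483 and 0.0767 TPM on *β-catenin*. A detection threshold of 0.4 TPM in at least 1 library is used here. It is reached by 1 read on *dkk1/2/4* in either library and by 2 reads on *Dlp-1* or *HAS-7* in library A, whereas 4 reads are needed on *Wnt3* and 9 on *β-catenin*. In library B the threshold takes 1 read on *Dlp-1* or *HAS-7*, 3 on *Wnt3* and 6 on *β-catenin*.

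**Figure D2:**
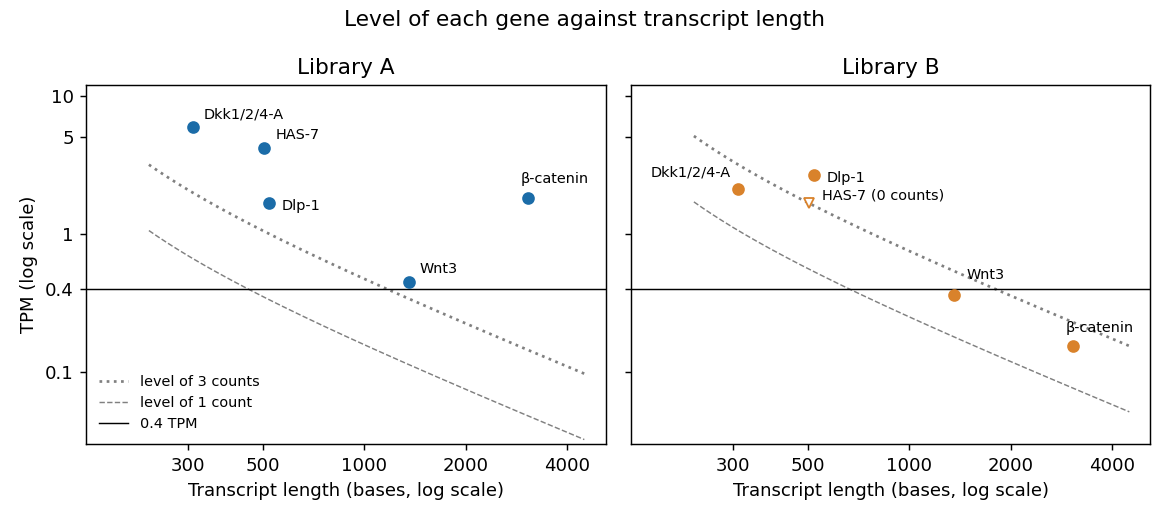
TPM (vertical log axis) against transcript length in bases (horizontal log axis) for library A (left) and library B (right), with the levels of 1 count (dashed) and 3 counts (dotted) and the threshold of 0.4 TPM (line). The points of library A lie above the dotted line, while in library B only *Dlp-1* does; the open triangle puts *HAS-7*, with 0 counts in library B, at the level of 3 counts.

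At this threshold 5 of 5 genes were detected in library A, in which 24.4% of mRNA targets passed, and 2 of 5 in library B, in which 4.61% passed. The genes detected in library B, and so in both libraries, were *dkk1/2/4* and *Dlp-1*, beside 3.74% of all mRNA targets. *Wnt3* in library B, at 0.359 TPM, lacked 1 read, and in library A it passed with the smallest whole number of reads that could pass. The detection of all 5 genes in at least 1 library, where 25.3% of mRNA targets passed, is no finding. The paper set the threshold from genes whose transcripts it had also amplified from EV RNA by RT-PCR, *Wnt3* and *β-catenin* among them. It named the antagonists among transcripts found in EVs, in a list matched to another reference transcript set. For the same reason the high ranks are descriptions. The median level of the 5 genes was 1.84 TPM in library A against 0.359 TPM in library B, beside medians of 0.0769 and 0 TPM over all mRNA targets. Their median percentile among mRNA targets was 95.2 in library A against 94.9 in library B.

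**Figure D3:**
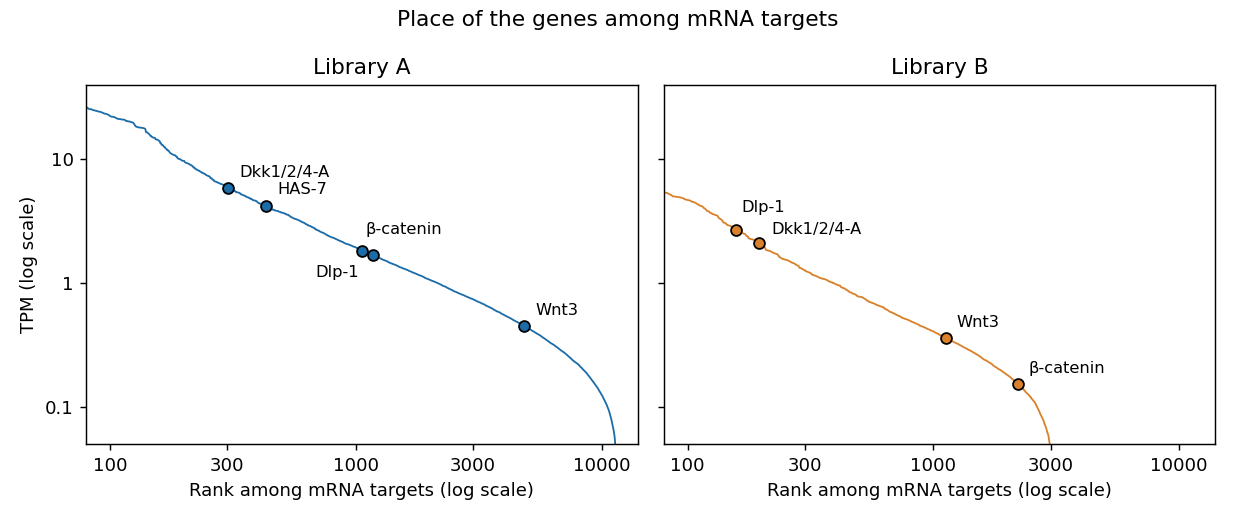
TPM (vertical log axis) of mRNA targets in order of rank (horizontal log axis, from rank 80 on) in library A (left) and library B (right), with the 5 genes as points. They spread from rank 303 (*dkk1/2/4*) to 4853 (*Wnt3*) in library A and from rank 158 (*Dlp-1*) to 2201.5 (*β-catenin*) in library B, where *HAS-7* had no count and is not drawn.

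The order of levels, from the highest, was *dkk1/2/4*, *HAS-7*, *β-catenin*, *Dlp-1* and *Wnt3* in library A. To see which of these levels differ beyond counting error, the ratio of counts per effective length was taken for each of the 10 pairs, with an exact conditional binomial interval. Of the 4 pairs of neighbours in this order, 1 had a 95% interval that leaves out 1, *HAS-7* over *β-catenin* with a ratio of 2.27 (1.08 to 4.44). Over all 10 pairs the interval left out 1 in 6, and in 3 when widened to 99.5% to allow for 10 pairs. These 3 were the levels of *dkk1/2/4* (13.1-fold, 3.66 to 58.2), *HAS-7* (9.23-fold, 2.80 to 39.3) and *β-catenin* (4.06-fold, 1.46 to 15.7) over *Wnt3*. So in library A *Wnt3* was below 3 of the other 4 genes by more than counting error, and *Dlp-1* over *Wnt3* was not (3.71-fold, 0.799 to 18.7).

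In library B the order was *Dlp-1*, *dkk1/2/4*, *Wnt3* and *β-catenin*, with *HAS-7* at 0. No pair of neighbours differed by the 95% interval. Of the 10 pairs 3 did, and at 99.5% only *Dlp-1* over *β-catenin* remained, with a ratio of 17.4 (2.86 to 183, at 95%). The place of *Wnt3* at the bottom of library A was thus not seen in library B, where *Wnt3* over *β-catenin* was 2.34-fold with an interval of 0.170 to 32.3. These intervals describe the libraries as sequenced, without the variation between vesicle preparations and without allowance for PCR copies.

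**Figure D4:**
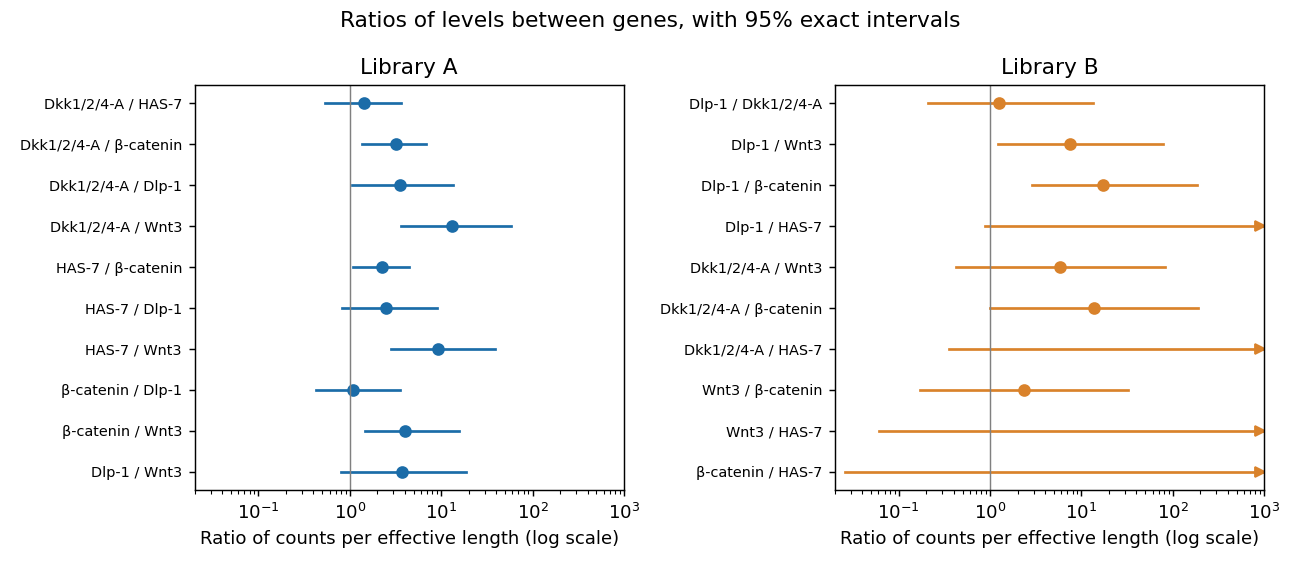
Ratio of counts per effective length (horizontal log axis) for each of the 10 pairs of genes in library A (left, blue) and library B (right, orange), the higher level first, with 95% exact conditional intervals. Arrows mark intervals without an upper end, where *HAS-7* had 0 counts; 6 intervals (library A) and 3 (library B) lie to the right of 1.

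Summed over the genes of each role, the 3 antagonists reached 11.8 TPM in library A against 4.79 TPM in library B, and *Wnt3* and *β-catenin* together 2.29 and 0.512 TPM. The antagonists were thus 5.15-fold and 9.35-fold higher, a mean of 7.25 ± 2.97 (SD, n = 2). This sets a sum over 3 genes against a sum over 2, which raises the ratio. No interval for counting error is given for it, and the SD does not measure that error. The ratio depends on the division by length. In counts the antagonists held 26 against 42 in library A, a ratio of 0.619, and 7 against 4 in library B, a ratio of 1.75. With the annotated length in place of the effective length the ratios were 4.05 and 7.54.

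Between the libraries, *β-catenin* and *Dlp-1* went apart most clearly. The count ratio of library A to library B was 19.0 for *β-catenin* (4.91 to 163) and 1.00 for *Dlp-1* (0.230 to 4.35), against 4.09 for all mRNA counts outside the 5 most abundant targets. The conditional estimate of the odds ratio between *β-catenin* and *Dlp-1*, which needs no library total, was 17.2 (exact conditional 95% interval 2.16 to 226, 99.5% interval 1.06 to 780). Among 10 such pairs this was the only interval that left out 1 at 99.5%. The counts of *Dlp-1* against *HAS-7* did so at 95%, with an upper end of 0.685, and not at 99.5%, with an upper end of 1.58.

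Set against the total of mRNA, *β-catenin* had a share 4.65-fold higher in library A (1.20 to 39.8). That this interval left out 1 depended on the 1 abundant mRNA target of library B that is named above by its counts. Without it the total differed 5.87-fold, and the ratio of *β-catenin* was 3.24 (0.837 to 27.7). The share of *Dlp-1* was 0.245-fold (0.0563 to 1.06) with that target in the total and 0.170-fold (0.0392 to 0.741) without it. For *Wnt3* the ratio was 0.489 (0.0701 to 5.41), and for *dkk1/2/4* 1.10 (0.228 to 10.5), so neither differed from the mRNA total beyond counting error.

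As log2(TPM + 0.1), the difference of library A over library B was 0.27 for *Wnt3*, 2.93 for *β-catenin*, 1.44 for *dkk1/2/4* and -0.64 for *Dlp-1*. Rescaling TPM over mRNA targets alone moves every gene by -1.38 on the log2 scale before the pseudocount, and the sign for *Wnt3* then turned, to -1.02. *β-catenin* kept its sign, at 2.16, and so did *Dlp-1*, at -2.04, while *dkk1/2/4* was at 0.10.

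Other mRNA targets with the same count in library A show what was usual. Of 624 targets with 5 counts in library A, 493 had 0 in library B, and 2 reached the 5 counts of *Dlp-1*. Of 790 targets with the 4 counts of *Wnt3*, 34 (4.30%) reached its 2 counts in library B. Of 229 targets with the 9 counts of *dkk1/2/4*, 37 (16.2%) did so. By contrast, *β-catenin* was ordinary, as 89 targets with 35 to 41 counts in library A had a median of 2 counts in library B (quartiles 1 and 5). *HAS-7* was ordinary too, since 77 of 137 targets with 12 counts in library A had 0 in library B. Thus *Dlp-1*, *Wnt3* and *dkk1/2/4* held more counts in library B than most mRNAs of like count. For *Wnt3* and *dkk1/2/4* this rests on 2 counts each and says little. Of the targets of like count, 633 of 790 and 146 of 229 had 0 in library B, so 1 read would place a gene above most. These shares are descriptions, with no test.

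**Figure D5:**
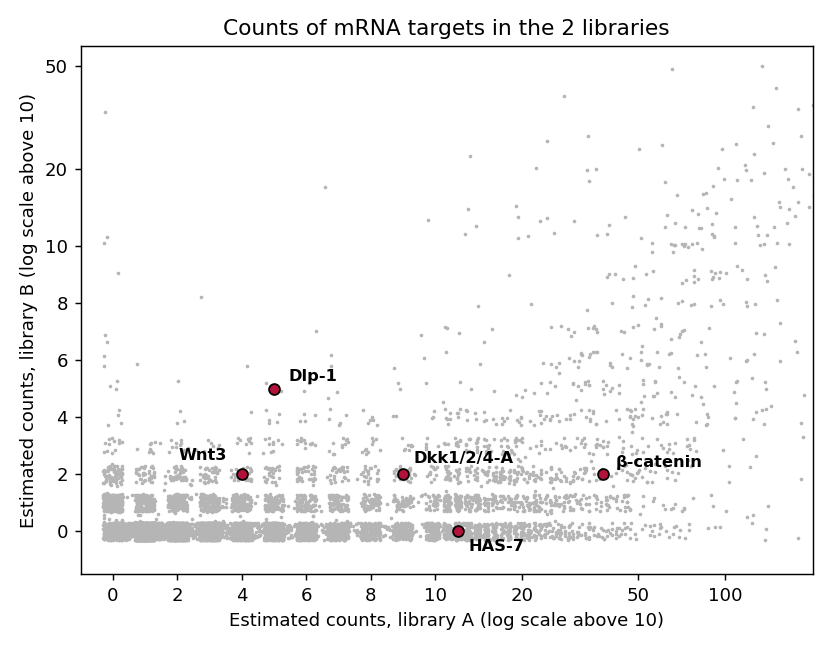
Estimated counts of mRNA targets in library A (horizontal axis) and library B (vertical axis), both linear up to 10 and on a log scale above, with a small random shift of the grey points; 80 targets over 200 counts in library A or 60 in library B lie outside. The 5 genes are red; *Dlp-1* stands above nearly all targets with 5 counts in library A, and *β-catenin* and *HAS-7* lie within the cloud.

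The named mRNA targets nearest to each gene in the plane of log2(TPM + 0.1) of both libraries were sought among 941 candidates, a likeness over 2 libraries only. For *Wnt3* they were nb012, at a distance of 0.27 with 5 and 2 counts, and az, at 1.00 with 4 and 1 counts. For *β-catenin* the nearest was LOC100207790, a mitochondrial-processing peptidase subunit beta-like gene (2.07 and 0.157 TPM), and then the uncharacterized LOC100199350 (2.10 and 0.166 TPM). For *dkk1/2/4* they were the uncharacterized LOC100203182 (5.40 and 2.15 TPM) and LOC101236711 (6.45 and 1.96 TPM). For *Dlp-1* they were nephrocystin-1-like LOC101236702 (1.66 and 2.40 TPM, on 22 and 20 counts) and the uncharacterized LOC100200796 (1.89 and 2.58 TPM). For *HAS-7* they were the TBC1 domain family gene LOC101236173 (4.17 TPM and 0) and the translocon-associated protein subunit delta LOC100206203 (4.22 TPM and 0). Most of the targets near in level differ from the gene in length and so in the counts behind the level.

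Beside these 5 genes, 3 cytoplasmic genes assigned to the pathway and 6 of the astacin family are described here, all identified through the part of the supplementary gene list used here, which holds detected genes from the most abundant down. Their detection is therefore no finding, and less abundant members can be missing. The 3 cytoplasmic genes were higher in library A than *Wnt3*, but they passed a minimum of 10 counts through library A only. Neither this place above *Wnt3* nor their contrast between the libraries is therefore a finding. Rac1 (LOC100206675), a small GTPase of the non-canonical branch, had 42 counts (5.14 TPM) in library A against 9 (1.75 TPM) in library B. Casein kinase I alpha (LOC100210081), which primes β-catenin for degradation, had 21 and 4 counts over 4 targets. Casein kinase II subunit beta (LOC100209200) had 17 counts over 2 targets in library A against 0 in library B, with part of its reads shared between targets. Of the 3 cytoplasmic genes, 2 reached 0.4 TPM in library B, as did 4.61% of all mRNA targets. They were taken from a list of abundant detected genes, so this is no finding either.

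Other astacin-family proteases were found beside *HAS-7*, and nothing in these data bears on whether they act on Wnt3. The 6 identified genes had between 13 and 36 counts in library A (1.94 to 5.19 TPM, median 3.86 TPM) and at most 4 in library B (median 0.227 TPM). They passed the minimum of 10 counts through library A only, so this contrast between the libraries is no finding. The highest count belonged to high choriolytic enzyme 1-like LOC100206128, with 36 and 4. Like *HAS-7*, zinc metalloproteinase nas-14-like LOC100214049 (18 counts) and astacin-like metalloprotease toxin 5 LOC100212827 (25 counts) had 0 counts in library B. The others were nas-6-like LOC100197494 (17 and 3 counts), blastula protease 10-like LOC100211071 (19 and 1) and nas-4-like LOC100200738 (13 and 1). The gene table gave 12 genes with *wnt* or *fzd* in their symbol or synonym, 1 of which, *Wnt3*, has an identifier among the targets. The other ligands, the Frizzled receptors, Tcf, Sp5, naked cuticle and thrombospondin were not analysed here.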

How the data were processed

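EV RNA was measured in 2 libraries (Ovation SoLo, paired ends) by the authors, who trimmed the reads with TrimGalore! and quantified them with kallisto on the transcripts of the NCBI assembly Hydra_RP_1.0; the kallisto version is not given in the sources used here. Estimated counts were deposited without normalization, with shared reads split by kallisto. The deposited TPM values are counts per effective length, scaled by kallisto over all targets, so a few abundant targets set their scale. The deposited lengths and effective lengths, in bases (other values), were used as they are.

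The members and lists were chosen with earlier results of these data known. Groups came from the sample labels. Nothing was normalized again for the main values. Poisson, conditional binomial and odds-ratio intervals are exact, at 95% (99.5% for 10 pairs), from SciPy 1.17.1 with Python 3.11.15; the floor is 3 counts per library. The named genes are the 5 members, the Wnt pathway list, and for each member the 2 named mRNA targets nearest in log2(TPM + 0.1) with at least 3 counts in 1 library. Names came from the RefSeq gene table of HydraT2T_AEP (66 targets matched by identifier) and from the supplementary gene list, by identical pairs of TPM values or the sum over adjacent targets. A gene of the pathway list is not reported here. With 1 condition no differential test was made. Alternatives were other thresholds, count minimums, scalings, lengths, pseudocounts and each library left out. Scripts were tested on simulated data.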

Additional observations from a re-analysis of the deposited data

How the results depend on the processing

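The number of the 5 genes detected stayed at 5 with thresholds of 0.2 TPM, with at least 3 counts in the same library and with TPM rescaled over mRNA targets, and was 4 at 1 TPM. It was 2 when detection in both libraries was required and 2 with at least 10 counts in the same library, and it ranged from 2 to 5 when either library was left out. The ratio of antagonists to *Wnt3* and *β-catenin*, 7.25 in TPM, was 1.18 in counts, 3.89 without *dkk1/2/4* and 4.27 without *Dlp-1*; it ranged from 5.15 to 9.35 with either library left out. The median percentile of the genes was 85.4 among mRNA targets with a count, 92.6 by counts and 95.3 with the annotated length. The log2 difference of *Wnt3* turned from 0.27 to -1.02 with TPM over mRNA targets. It was -1.03 per mRNA count, with or without the 5 most abundant targets, and -1.55 without the largest other mRNA target, where *dkk1/2/4* turned to -0.38 (these scalings per mRNA count were chosen after seeing the data). Mean TPM of single genes moved beyond the SD of the libraries under the 2 rescalings, *Wnt3* to 15.3 and 3.97 TPM. Low counts limit every value of library B, where 4 of 5 genes had under 3 counts, with total counts 1.51-fold and mRNA counts 4.10-fold lower than in library A. A log2 ratio limited to genes with 3 counts in both libraries was possible for *Dlp-1* only. No paired analysis was possible because the series has 1 group.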
